A study of Arabidopsis thaliana with 36 samples.

Results

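Reads were counted in 9 Arabidopsis genes whose products move abscisic acid (ABA), gibberellin (GA) or both across membranes. The genes were taken by locus identifier from the deposited count matrix, which lists 28775 genes, and all 9 identifiers were found there. They are NPF3.1 (AT1G68570), NPF4.6 (AT1G69850), NPF4.1 (AT3G25260), NPF2.12 (AT1G27080), NPF2.13 (AT1G69870), NPF2.14 (AT1G69860), ABCG40 (AT1G15520), ABCG25 (AT1G71960) and DTX50 (AT5G52050). The libraries came from the lower part of roots of 5-d-old seedlings, with many seedlings pooled into each sample and 3 samples in each of 12 groups. Seedlings had been moved to 140 mM NaCl or kept under mock conditions for 1 h or 8 h. The wild-type was Landsberg erecta (Ler), and della5x carried mutant alleles of the DELLA genes RGL3 (rgl3-4), RGL2 (rgl2-1), RGL1 (rgl1-1), RGA (rga-t2) and GAI (gai-t6), whose products repress GA responses. The other genotypes, sampled at 8 h only, were gai, whose DELLA protein GAI is stabilised against GA, and ga4, which is impaired in a late step of GA synthesis. No group of gai or ga4 exists at 1 h, and every mutant allele was present in the whole plant, so no result here belongs to a single cell type.

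ABA accumulates when water is withheld or salt is added and closes stomata, slows root growth and changes xylem formation, whereas GA releases growth by causing DELLA proteins to be degraded. Both hormones are weak acids that cross a membrane slowly once they have lost a proton, so their movement between cells depends on importers and exporters. Most of the genes described here encode importers of the nitrate and peptide transporter family (NPF), several of which carry ABA, GA and other substrates when expressed in yeast or frog oocytes. NPF3.1 takes up GA and ABA and is known from the root endodermis, NPF4.6 is an ABA importer first described as a nitrate transporter, and NPF4.1 takes up both hormones. NPF2.12 and NPF2.13 belong to a branch of the family that loads and unloads the phloem, and NPF2.14 sits in the vacuolar membrane. ABCG40 is an ABA importer of the ABC family, ABCG25 is an ABA exporter of the same family that is expressed in vascular tissue, and DTX50 is an ABA exporter of the MATE family.

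The stretches upstream of 3 genes are given because the results turn on these genes. ABCG25 was higher on salt in all 6 comparisons with mock. DTX50 had the largest fitted change at 8 h, although it could enter those tests only through its salt libraries. The response of NPF2.13 in Ler differed between 1 h and 8 h after adjustment, as did those of 20.5% of all genes. Each stretch holds the 300 bases before the annotated gene start in the RefSeq TAIR10.1 assembly of the accession Columbia, written 5′ to 3′ on the gene's own strand, and Ler may differ from it. Capitals mark matches on either strand to ACGTG, the core of the ABA response element, to CACGTG, the G-box, which itself holds ACGTG on both strands, to GCCGAC, the core of the dehydration response element, or to the GA response element TAACAAA.
ABCG25 at chr1:27088249-27088548, minus strand: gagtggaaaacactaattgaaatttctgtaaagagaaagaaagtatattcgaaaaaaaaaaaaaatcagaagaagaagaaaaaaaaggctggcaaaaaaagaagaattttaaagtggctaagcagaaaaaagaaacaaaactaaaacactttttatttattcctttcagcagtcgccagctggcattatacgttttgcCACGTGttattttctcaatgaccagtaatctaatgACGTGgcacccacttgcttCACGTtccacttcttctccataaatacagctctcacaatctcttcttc
DTX50 at chr5:21138403-21138702, plus strand: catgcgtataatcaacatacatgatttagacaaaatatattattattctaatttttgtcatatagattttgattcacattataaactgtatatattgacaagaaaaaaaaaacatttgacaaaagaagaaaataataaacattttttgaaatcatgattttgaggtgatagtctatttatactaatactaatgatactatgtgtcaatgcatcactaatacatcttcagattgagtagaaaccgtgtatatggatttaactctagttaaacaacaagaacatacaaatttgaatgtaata
NPF2.13 at chr1:26315487-26315786, plus strand: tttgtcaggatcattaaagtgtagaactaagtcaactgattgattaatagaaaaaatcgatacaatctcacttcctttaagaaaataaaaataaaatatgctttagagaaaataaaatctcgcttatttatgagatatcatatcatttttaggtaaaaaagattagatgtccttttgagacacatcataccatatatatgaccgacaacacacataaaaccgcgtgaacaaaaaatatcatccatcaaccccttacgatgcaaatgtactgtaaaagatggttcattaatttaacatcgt

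ACGTG was found in the windows of 4 of the 9 genes and in 25.6% of the 27438 windows of this length before protein-coding genes. ABCG25 held 4 matches that began 102, 101, 67 and 48 bases before the gene start, and the first 2 of them lie in the same CACGTG. Of all windows, 1.56% held at least 4 matches, a count chosen after the ABCG25 window had been seen. NPF3.1, ABCG40 and NPF2.14 held 1 match each, 99, 122 and 121 bases before the start. CACGTG was present in 1 of the 9 windows against 7.09% of all windows, TAACAAA in 2 (NPF4.6 and ABCG40) against 19.2%, and GCCGAC in 0 against 3.01%. The DTX50 and NPF2.13 windows held none of these letters, which says nothing about factors that bind elsewhere. A match is a string of letters and was not tested as a binding site.

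The 36 libraries held 16772984 to 23811804 counted reads. Levels are given as CPM, the count relative to the library total after scaling by the trimmed mean of M values (TMM), and a count of 0 allowed a level of up to 0.124 to 0.183 CPM (3 counts), which covers counting error only. Replicate libraries differed by more than counting noise in all 36 pairs. In della5x, GAI was at 2.84 to 11.4 CPM against 12.5 to 23.9 CPM in the other genotypes, and RGL2 at 2.93 to 12.2 CPM against 9.90 to 19.3 CPM, ranges that overlap. RGL1 was at 0 to 0.305 CPM against 4.06 to 8.67 CPM and RGA at 27.3 to 53.2 CPM against 72.4 to 121 CPM, whereas RGL3 transcripts were higher, at 152 to 437 CPM against 2.63 to 9.97 CPM. The first factor of the differences between replicates held 22.6% of their variance and set apart della5x salt 1 h replicates 2 and 3 (loadings of -0.49 and 0.35), the third salt 8 h libraries of della5x (-0.36), gai (-0.24) and ga4 (-0.23), and Ler mock 1 h replicate 1 (-0.23). The third libraries had a negative loading in all 8 groups of 8 h (-0.363 to -0.0440) and the other 16 libraries of 8 h a positive one (0.00513 to 0.222), although the labels name nothing that the third libraries share. Markers of root tissues were present in every library. The summed level of 5 endodermis markers was 331 to 438 CPM in mock libraries at 8 h and 230 to 319 CPM in salt libraries, although not every marker fell. The sum of 4 pericycle and phloem markers at 8 h was 871 to 1511 CPM in Ler mock and 742 to 974 CPM in Ler salt libraries. Mock and salt sums were 891 to 1047 and 729 to 827 CPM in della5x, and 662 to 819 and 403 to 680 CPM in gai. In ga4 they were 691 to 1071 and 499 to 780 CPM. In each genotype 1 of these 4 markers rose and 1 fell at 8 h. The sum of 5 leaf photosynthesis genes was 9.46 to 143 CPM, with none at 0 in every library. In whole root pieces, fewer cells of a type and less RNA in each cell cannot be told apart.

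**Figure D1:**
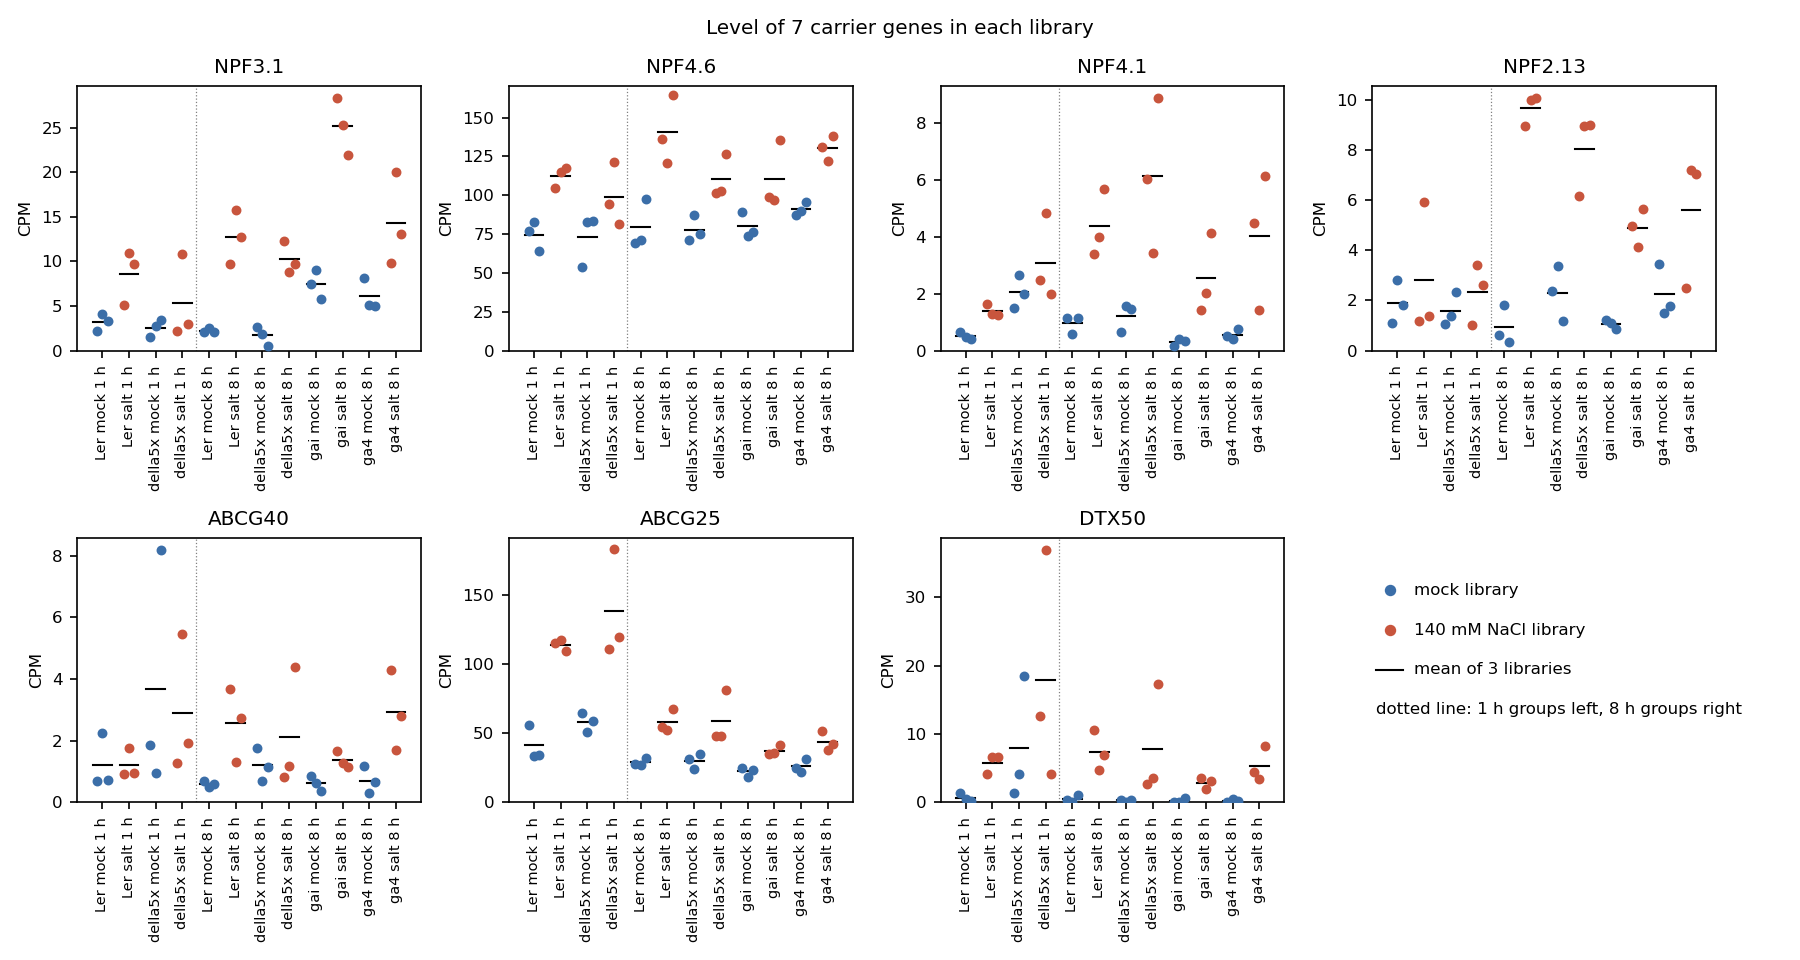
Level of 7 of the 9 genes in each library, in CPM (y axis, starting at 0, with its own scale for each gene), for the 12 groups on the x axis. Points are libraries and lines are means of 3, and NPF2.12 and NPF2.14 are left out because they were at or near 0. All salt libraries lie above all mock libraries of the same genotype and time for 7 genes in Ler and gai at 8 h. This holds for 6 in della5x and ga4 at 8 h, 5 in Ler at 1 h and only ABCG25 in della5x at 1 h. The share of all genes apart in this way was not counted.

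Levels of different genes were compared per kilobase of exon. In Ler mock roots at 1 h, NPF4.6 had the highest level at 30.6 ± 3.89 CPM per kb (SD, n = 3), followed by ABCG25 at 18.2 ± 5.63 CPM per kb. NPF3.1 followed at 1.53 ± 0.431 CPM per kb and NPF2.13 at 0.787 ± 0.352 CPM per kb, and DTX50, NPF4.1 and ABCG40 were at 0.280 ± 0.279, 0.272 ± 0.0678 and 0.262 ± 0.193 CPM per kb, values that did not differ beyond their spread. After 8 h of salt in Ler the same 2 genes led, with 57.7 ± 9.12 CPM per kb for NPF4.6 and 25.6 ± 3.57 CPM per kb for ABCG25. NPF3.1 was then at 6.07 ± 1.43, NPF2.13 at 3.99 ± 0.252, DTX50 at 3.40 ± 1.37, NPF4.1 at 2.25 ± 0.612 and ABCG40 at 0.554 ± 0.256 CPM per kb. An importer that also carries nitrate and a vascular exporter thus supplied most of the transcripts of these 9 genes per kilobase in both groups.

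NPF3.1 lies on the plus strand of chromosome 1 (TAIR10.1, 25746697 to 25750291) with 6 exons. Its levels in the 3 Ler mock libraries at 8 h were 2.09, 2.55 and 2.125 CPM, and in the salt libraries 9.74, 15.8 and 12.7 CPM. The groups did not overlap, and NPF3.1 rose by 2.50 ± 0.35 (log2 fold change ± SE, adjusted P = 7.60e-06). In della5x at 8 h the mock values were 2.69, 1.89 and 0.566 CPM and the salt values 12.3, 8.79 and 9.66 CPM, a rise of 2.60 ± 0.36 (adjusted P = 7.88e-06). The remaining genotypes started from a higher level. The gai mock libraries held 7.45, 9.07 and 5.76 CPM and the ga4 mock libraries 8.18, 5.14 and 5.04 CPM, above every Ler mock library at either time. On salt, gai reached 28.3, 25.2 and 21.9 CPM, the highest levels of the series, and ga4 9.84, 20.0 and 13.1 CPM. The rises were 1.77 ± 0.32 in gai (adjusted P = 0.000219) and 1.23 ± 0.32 in ga4 (adjusted P = 0.00600), and without ga4 salt 8 h replicate 2 the latter was 0.91 (adjusted P = 0.0559).

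At 1 h the changes of NPF3.1 did not pass the test in the fit of the 1 h libraries. Ler held 2.26, 4.06 and 3.32 CPM under mock conditions and 5.07, 11 and 9.71 CPM on salt, without overlap (1.42 ± 0.56, adjusted P = 0.109). The change in Ler passed with the factor above as a covariate (adjusted P = 0.0363), in a fit of the compared groups alone (adjusted P = 0.0212) and with all 36 libraries (adjusted P = 0.0223). In della5x the mock libraries held 1.55, 2.76 and 3.44 CPM and the salt libraries 2.19, 10.8 and 2.95 CPM, so that 1 library carried the fitted change of 1.06 ± 0.56 (adjusted P = 0.262), which was -0.00203 without it. An antisense gene, AT1G68568, lies within NPF3.1 on the other strand, with 0 to 13 counts in mock and 0 to 24 in salt libraries against 12 to 496 counts for NPF3.1, and strand-specific counting was not stated, so reads of the pair cannot be told apart.

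NPF4.6, the ABA importer with the highest level, lies on the minus strand of chromosome 1 (26296540 to 26300684, 5 exons) and responded within a narrow range. Ler held 77.3, 82.5 and 64.1 CPM under mock conditions at 1 h and 105, 115 and 117 CPM on salt, a rise of 0.60 ± 0.19 (adjusted P = 0.0454). The call was lost when any of the 6 Ler libraries of 1 h was left out, with changes of 0.51 to 0.69 and adjusted P of 0.0745 to 0.145. At 8 h Ler held 69.2, 71.1 and 97.6 CPM under mock conditions and 136, 121 and 165 CPM on salt, again without overlap, and the rise was 0.84 ± 0.15 (adjusted P = 0.000109). The mutants changed by 0.51 ± 0.15 in della5x (adjusted P = 0.010), 0.53 ± 0.14 in ga4 (adjusted P = 0.00882) and 0.47 ± 0.15 in gai (adjusted P = 0.0189), and the last value is under the fold limit of 0.5 on the log2 scale. Their mock libraries ranged from 71.4 to 95.7 CPM and their salt libraries from 97.0 to 138 CPM. The della5x call of NPF4.6 was lost when the third library of every 8 h group was left out (0.37), without della5x mock replicate 1 (0.45) or 3 (0.48) or salt replicate 3 (0.40), and, just under the fold limit, with no filter on low counts (0.495) or with the factor as a covariate (0.499). The ga4 call was lost without ga4 mock replicate 1 (0.498) or salt replicate 3 (0.486), and the gai change passed the limit without mock replicate 1 or salt replicate 1 or 2 (0.54 to 0.56). In della5x at 1 h the mock libraries held 53.7, 82.7 and 83.5 CPM and the salt libraries 94.3, 122 and 81.5 CPM, which overlapped (0.45 ± 0.19, adjusted P = 0.145).

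NPF4.1, which imports ABA and GA, lies on chromosome 3 (9199438 to 9202000, plus strand, 4 exons) and was expressed at a low level. Ler held 0.672, 0.494 and 0.415 CPM under mock conditions at 1 h and 1.65, 1.30 and 1.27 CPM on salt (1.43 ± 0.43, adjusted P = 0.0434). This call too was lost without any 1 of the 6 libraries (1.28 to 1.65, adjusted P of 0.0630 to 0.132) and in a fit of all 36 libraries (1.41, adjusted P = 0.0505). In Ler at 8 h it rose from 1.15, 0.585 and 1.15 CPM to 3.39, 4.00 and 5.69 CPM (2.19 ± 0.52, adjusted P = 0.00245). The gai libraries went from 0.157, 0.402 and 0.354 CPM to 1.44, 2.04 and 4.13 CPM, a rise of 3.04 ± 0.60 (adjusted P = 0.000506). In ga4 they went from 0.505, 0.403 and 0.750 CPM to 4.47, 1.44 and 6.14 CPM (2.86 ± 0.55, adjusted P = 0.000443), and in della5x from 0.658, 1.58 and 1.46 CPM to 6.04, 3.44 and 8.85 CPM (2.30 ± 0.51, adjusted P = 0.00137). In none of these 4 genotypes did salt and mock libraries overlap at 8 h. The gai mock libraries of 8 h held 3 to 7 counts each, 17 in all, so the size of the rise in gai rests on few mock reads. At 1 h della5x held 1.5, 2.65 and 1.98 CPM under mock conditions, all above the Ler mock libraries, and 2.46, 4.83 and 1.98 CPM on salt (0.62 ± 0.39, adjusted P = 0.356).

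NPF2.13, first described as a nitrate transporter of the phloem, lies on the plus strand of chromosome 1 (26315787 to 26320233, 4 exons). At 1 h its groups overlapped in both genotypes. Ler held 1.10, 2.80 and 1.82 CPM under mock conditions and 1.20, 5.91 and 1.37 CPM on salt (0.57 ± 0.66, adjusted P = 0.615), and della5x held 1.06, 1.38 and 2.33 CPM and 1.02, 3.40 and 2.61 CPM (0.57 ± 0.66, adjusted P = 0.645). The Ler value was -0.55 without Ler salt 1 h replicate 2. At 8 h the Ler libraries were clearly apart, with 0.628, 1.81 and 0.345 CPM under mock conditions and 8.96, 9.97 and 10.05 CPM on salt. The rise of 3.37 ± 0.49 (adjusted P = 1.14e-05) was the largest of NPF2.13 in any genotype. The della5x libraries went from 2.36, 3.38 and 1.18 CPM to 6.16, 8.94 and 9.0 CPM (1.80 ± 0.44, adjusted P = 0.00323), and the gai libraries from 1.21, 1.09 and 0.859 CPM to 4.95, 4.12 and 5.63 CPM (2.22 ± 0.48, adjusted P = 0.00122). In ga4 the ranges overlapped, with 3.43, 1.51 and 1.77 CPM against 2.51, 7.21 and 7.05 CPM (1.33 ± 0.44, adjusted P = 0.0299). The ga4 call was lost without ga4 mock replicate 2 or 3, without ga4 salt replicate 2 or 3, without the third libraries (0.99, adjusted P = 0.143), in a fit of the compared groups alone (adjusted P = 0.0804) and in a fit of all 36 libraries (adjusted P = 0.0813).

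The other members of the NPF2 branch were not detectable at this depth in nearly all libraries. NPF2.12 (chromosome 1, 9400326 to 9403905, plus strand) had 4 counts in della5x salt 8 h replicate 2 and 0 in all other libraries. NPF2.14 (chromosome 1, 26309628 to 26312174, plus strand, 4 exons), which is the annotated left neighbour of NPF2.13, had 6 counts in ga4 salt 8 h replicate 1, 1 count in Ler mock 1 h replicate 2 and 0 elsewhere. Neither passed the filter on low counts, so neither was tested. The coding sequences of NPF2.12 and NPF2.13 were identical at 73.1% of aligned bases, with a longest shared run of 38 bases, and those of NPF2.13 and NPF2.14 at 60.9%, with a longest run of 13 bases. The end of NPF2.12 overlaps AT1G27090 on the other strand by 153 bases, a gene with 1857 to 2843 counts in every library.

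ABCG40, the ABA importer known from guard cells (chromosome 1, 5331858 to 5338326, minus strand, 22 exons), had replicates that spread widely. At 1 h its mock and salt libraries overlapped, with 0.672, 2.25 and 0.726 CPM against 0.907, 1.76 and 0.950 CPM in Ler (-0.01 ± 0.83, adjusted P = 0.997). In della5x the values were 1.84, 0.937 and 8.19 CPM under mock conditions and 1.28, 5.47 and 1.93 CPM on salt (-0.32 ± 0.78, adjusted P = 0.845), so that the highest library of the series was a mock library. At 8 h it rose in Ler from 0.681, 0.479 and 0.574 CPM to 3.67, 1.31 and 2.73 CPM (2.15 ± 0.62, adjusted P = 0.00999) and in ga4 from 1.16, 0.302 and 0.643 CPM to 4.30, 1.71 and 2.80 CPM (2.06 ± 0.60, adjusted P = 0.0141). The ga4 call was lost without ga4 mock replicate 2 (1.70, adjusted P = 0.0740) or ga4 salt replicate 1 (1.68, adjusted P = 0.0717). In gai the libraries held 0.839, 0.632 and 0.354 CPM against 1.67, 1.27 and 1.13 CPM, which did not overlap but did not pass the test (1.16 ± 0.62, adjusted P = 0.184). In della5x 1.75, 0.702 and 1.13 CPM stood against 0.829, 1.18 and 4.37 CPM (0.85 ± 0.58, adjusted P = 0.288), and the third salt library alone lay above the mock range.

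The exporter ABCG25 (chromosome 1, 27082394 to 27088248, minus strand, 4 exons) rose on salt in every genotype and at both times, and its salt and mock libraries did not overlap in any of the 6 pairs. At 1 h Ler held 56.0, 33.4 and 34.4 CPM under mock conditions and 115, 118 and 109 CPM on salt, a rise of 1.48 ± 0.22 (adjusted P = 0.00106). In della5x 64.2, 50.5 and 58.5 CPM became 111, 183 and 120 CPM (1.27 ± 0.22, adjusted P = 0.00392). Its 8 h salt libraries all lay below its 1 h salt libraries. Ler then held 27.3, 27.2 and 32.2 CPM under mock conditions and 54.2, 52.4 and 67.2 CPM on salt (1.01 ± 0.19, adjusted P = 0.000304), and della5x 31.4, 23.8 and 34.5 CPM and 47.6, 48.1 and 81.3 CPM (0.99 ± 0.19, adjusted P = 0.000428). The gai libraries went from 24.9, 18.5 and 23.4 CPM to 35.1, 35.3 and 41.4 CPM (0.75 ± 0.20, adjusted P = 0.00645) and the ga4 libraries from 24.9, 21.6 and 31.5 CPM to 51.4, 37.7 and 42.2 CPM (0.76 ± 0.19, adjusted P = 0.00549). ABCG25 kept its call under every alternative tried, in each of the 6 comparisons. Its window, printed above, is the one with the CACGTG and the further ACGTG matches.

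DTX50, the MATE exporter (chromosome 5, 21138703 to 21140876, plus strand, 1 exon), went from a few counts to many more on salt. In Ler at 8 h it was at 0.314, 0 and 1.03 CPM under mock conditions, 24 counts in all, and at 10.6, 4.66 and 6.95 CPM on salt, 416 counts in all (4.06 ± 0.91, adjusted P = 0.00149). The other mock groups of 8 h held 15 counts in della5x, 13 in gai and 14 in ga4, summed over 3 libraries, and their salt groups 455, 158 and 291. The fitted rises were 4.99 ± 0.97 in della5x (adjusted P = 0.000419), 3.62 ± 0.99 in gai (adjusted P = 0.00891) and 4.45 ± 0.98 in ga4 (adjusted P = 0.00151). No salt library overlapped the mock libraries of its genotype at 8 h, where the lowest salt library was gai replicate 2 at 1.98 CPM. Because the mock libraries of 8 h alone did not pass the filter on low counts, DTX50 could enter these tests only through its salt libraries, and the size of its change rests on few mock reads.

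At 1 h DTX50 held 1.28, 0.439 and 0.104 CPM in Ler mock roots and 4.08, 6.58 and 6.65 CPM on salt. The ranges did not overlap, and the test was missed (3.29 ± 1.11, adjusted P = 0.0658). It was passed in a fit of the compared groups alone (adjusted P = 0.00957), with all 36 libraries (adjusted P = 0.0184), with the factor above as a covariate (adjusted P = 0.00494) and with DESeq2 (adjusted P = 0.0199). In the fit of the compared groups alone, DTX50 could pass the filter on low counts only through its salt libraries. Its Ler mock libraries of 1 h held 21, 8 and 2 counts. In della5x the libraries spread widely, from 1.31 and 4.13 to 18.5 CPM under mock conditions and from 4.14 and 12.7 to 36.9 CPM on salt (1.18 ± 0.90, adjusted P = 0.452). The della5x mock library with 18.5 CPM was also the one with the highest ABCG40 level.

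Counted together, 3 of the 7 genes tested rose in Ler after 1 h of salt (NPF4.6, NPF4.1 and ABCG25) and 0 fell, where 8.54% of the 20073 genes tested rose and 5.37% fell. Only ABCG25 remained when any of the 6 Ler libraries was left out. In della5x at 1 h 1 of 7 rose (ABCG25) and 0 fell, against 6.62% and 3.52% of all genes. At 8 h 7 of 7 rose in Ler against 12.9% of all genes (10.4% fell), 6 of 7 in della5x against 13.7% (9.03% fell), 5 of 7 in gai against 10.6% (8.35% fell) and 7 of 7 in ga4 against 10.7% (9.01% fell). DTX50, which could enter the 8 h tests only through its salt libraries, is in all 4 of these counts, and without it they were 6 of 6, 5 of 6, 4 of 6 and 6 of 6. NPF4.6 is in the della5x and ga4 counts and lost those calls under the alternatives given above. In the ga4 count, NPF3.1, NPF2.13 and ABCG40 also lost their calls under alternatives given above. None of the genes fell in any genotype at 8 h. Those that missed the call were ABCG40 in della5x and gai, and NPF4.6 in gai. The median log2 fold change of the 7 genes tested was 1.42 in Ler at 1 h and 2.19 at 8 h (2.17 without DTX50), where the median over all genes was -0.01 at both times. The 7 do not stand for all 9, since the undetected NPF2.12 and NPF2.14 could not be tested. The members were chosen with earlier results of these data known, so setting their counts against the shares of all genes is a description and not a test. The summed level of the 5 endodermis markers was lower on salt at 8 h in the same libraries (mock 331 to 438, salt 230 to 319 CPM), although the markers did not all go the same way. CASP1 and CASP2 fell in all 4 genotypes and SGN1 in Ler, SCR was not called, and MYB36 rose in Ler, della5x and ga4 (0.51, 0.74 and 0.81). The part of these markers in the changes of the transporter genes was not tested.

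**Figure D2:**
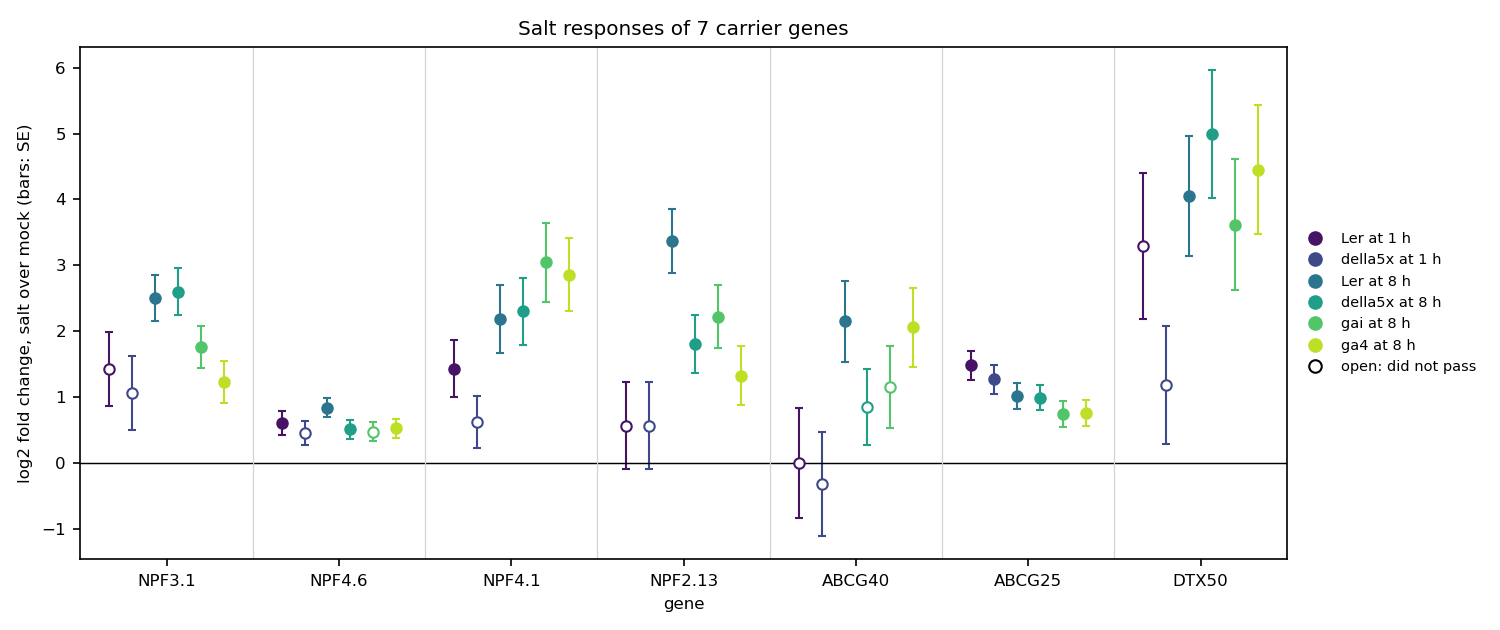
Salt responses of the 7 genes tested, as log2 fold change of salt over mock (y axis) for each gene (x axis), with 1 point for each genotype and time and bars for the SE. Filled points passed an adjusted P of 0.05 and a log2 fold change of 0.5. All 7 genes are filled in Ler and ga4 at 8 h, from 0.53 (NPF4.6 in ga4) to 4.45 (DTX50 in ga4). DTX50 could enter the 8 h tests only through its salt libraries, and the size of its change rests on few mock reads.

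The question whether the mutants responded differently was addressed by the difference of each mutant's response from that of Ler, in the same fit, so the 3 mutants share the Ler libraries of 8 h. The study used an unadjusted P under 0.05 among genes that had responded in Ler, whereas here it was used for all genes tested. By this threshold, 0 of 7 genes differed in della5x at 1 h, where 4.11% of all genes did. At 8 h 1 of 7 differed in della5x (4.72% of all genes), 0 of 7 in gai (5.27%) and 2 of 7 in ga4 (5.04%). After adjustment over all genes 0 members differed in any of these comparisons by edgeR, and 0 by DESeq2, and of all genes 0%, 0%, 0.0344% and 0% did, in the same order. The genes behind the unadjusted counts were NPF2.13 and NPF3.1. The response of NPF2.13 was different from that of Ler by -1.57 ± 0.64 in della5x (adjusted P = 1.00) and by -2.05 ± 0.65 in ga4 (adjusted P = 0.739), with a value of -1.15 ± 0.67 in gai that missed the unadjusted threshold and passed it without Ler mock 8 h replicate 2 (-2.06, adjusted P = 0.538). The della5x and ga4 mock libraries were mostly above those of Ler and their salt libraries mostly below. The della5x value missed the unadjusted threshold when all 36 libraries were fitted together (-1.57) and without Ler mock 8 h replicate 1 (-1.35) or 3 (-1.19), della5x mock 8 h replicate 2 (-1.18) or della5x salt 8 h replicate 1 (-1.41). For NPF3.1 the ga4 difference was -1.27 ± 0.47 (adjusted P = 0.896), the gai value -0.73 ± 0.46 and the della5x value 0.09 ± 0.49. The ga4 value of NPF3.1 missed the unadjusted threshold with all 36 libraries (-1.27) and without ga4 mock 8 h replicate 1 (-0.99).

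The remaining genes gave differences whose errors were large against their size. NPF4.6 differed by -0.33 ± 0.20 in della5x, -0.36 ± 0.21 in gai and -0.31 ± 0.20 in ga4 at 8 h, and ABCG25 by -0.02 ± 0.27, -0.27 ± 0.27 and -0.26 ± 0.27. When the third library of every 8 h group was left out, NPF4.6 passed the unadjusted test in each mutant, at -0.51 in della5x (adjusted P = 0.888), -0.62 in gai (adjusted P = 0.199) and -0.36 in ga4 (adjusted P = 0.793). It also passed in each mutant without Ler mock 8 h replicate 3 alone (-0.51, -0.54 and -0.47), and in della5x and gai with the factor above as a covariate (-0.34 and -0.38). NPF4.1 differed by 0.11 ± 0.73, 0.86 ± 0.78 and 0.67 ± 0.74. ABCG40 and DTX50 had an SE of 0.83 to 1.47 in these comparisons. The ABCG40 difference in della5x at 8 h was -1.30 ± 0.84 and passed the unadjusted threshold without della5x salt 8 h replicate 3 (-2.37, adjusted P = 1.00) or without the third libraries of 8 h (-2.36, adjusted P = 0.961). At 1 h the della5x differences were -2.10 ± 1.42 for DTX50, -0.81 ± 0.58 for NPF4.1 and -0.36 ± 0.79 for NPF3.1. Without della5x salt 1 h replicate 2, a library set apart above, they were -3.20, -1.29 and -1.42, each past the unadjusted threshold (adjusted P = 0.770).

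**Figure D3:**
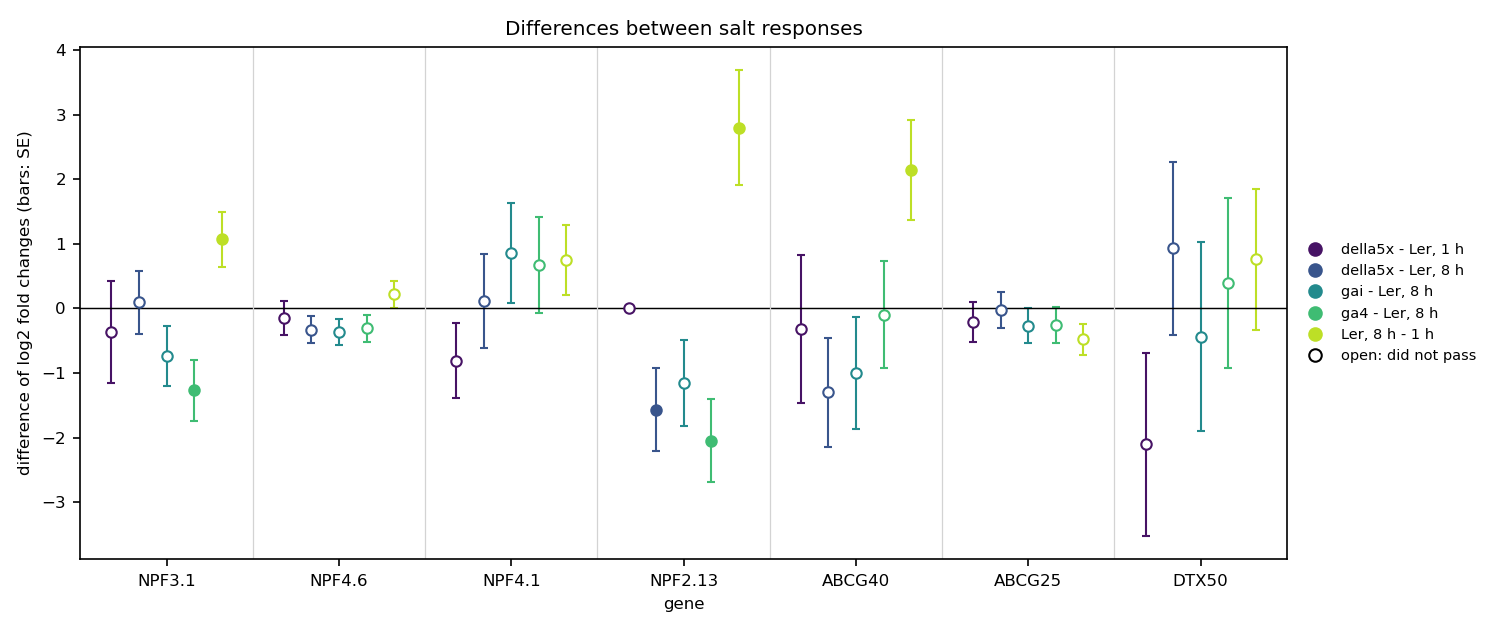
Differences between salt responses of the 7 genes tested (y axis, difference of log2 fold changes, bars for the SE) by gene (x axis), for each mutant against Ler and for Ler at 8 h against 1 h. Filled points passed an unadjusted P of 0.05, namely NPF2.13 in della5x (-1.57) and ga4 (-2.05) at 8 h, NPF3.1 in ga4 (-1.27), and NPF3.1, NPF2.13 and ABCG40 in Ler at 8 h against 1 h. The point of NPF2.13 in della5x at 1 h lies at 0 and has no bar because its error could not be computed.

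Within Ler, the responses at 8 h and 1 h were compared over the 12 Ler libraries. At an unadjusted P under 0.05, 3 of 7 genes had a larger response at 8 h and 0 a smaller one, where 33.5% of all genes differed in either direction, and after adjustment 1 of 7 differed where 20.5% of all genes did. The response of NPF2.13 was larger at 8 h by 2.80 ± 0.89 (adjusted P = 0.0414), that of ABCG40 by 2.15 ± 0.78 (adjusted P = 0.0696) and that of NPF3.1 by 1.07 ± 0.43 (adjusted P = 0.0986). ABCG40 and NPF3.1 missed the unadjusted threshold as well without Ler mock 1 h replicate 2, at 1.35 and 0.87, and NPF3.1 also without Ler mock 8 h replicate 3 (1.03), without Ler salt 8 h replicate 2 (0.89) and with all 36 libraries (1.08). The values of NPF4.6, NPF4.1 and DTX50 were 0.22 ± 0.21, 0.75 ± 0.54 and 0.76 ± 1.09. The exporter ABCG25 was the only gene with a negative value, -0.48 ± 0.24 (adjusted P = 0.191), which became -0.73 without Ler mock 1 h replicate 1 (adjusted P = 0.00681), -0.60 without Ler salt 8 h replicate 3 (adjusted P = 0.123) and -0.51 with the factor above as a covariate (adjusted P = 0.0161). Time and any handling that differed between the 1 h and 8 h harvests cannot be told apart.

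Without salt, 0 of the tested genes differed between a mutant and Ler by edgeR. This was 0 of 7 in della5x at 1 h where 0.165% of all genes differed, and 0 of 6 at 8 h in della5x (0.484%), gai (0.789%) and ga4 (1.31%), DTX50 being too low there to be tested. At an unadjusted P under 0.05 the genes past the threshold were NPF4.1, ABCG25 and DTX50 in della5x at 1 h, NPF2.13 in della5x at 8 h, NPF3.1, NPF4.1 and ABCG25 in gai, and NPF3.1 and NPF2.13 in ga4. The share of all genes past this unadjusted threshold was not counted, so the list cannot be set against it. NPF3.1 came nearest to the call, at 1.71 ± 0.39 in gai (adjusted P = 0.0577) and 1.43 ± 0.39 in ga4 (adjusted P = 0.0938). With DESeq2 it was called in both (adjusted P = 0.00155 and 0.0128), as it was in fits of the compared groups alone (adjusted P = 0.00641 and 0.0454), with the covariate (adjusted P = 0.00410 and 0.0144) and without the third libraries (adjusted P = 0.0206 and 0.0461). The leaf photosynthesis genes summed to 108 to 143 CPM in the gai and 36.7 to 110 CPM in the ga4 mock libraries against 55.5 to 74.4 CPM in Ler, and their part in this was not tested. The value of NPF4.1 was -1.65 ± 0.57 in gai (adjusted P = 0.205) and 1.95 ± 0.41 in della5x at 1 h (adjusted P = 0.158), the latter called by DESeq2 (adjusted P = 0.0162). The value of DTX50 in della5x at 1 h was 3.75 ± 1.11 (adjusted P = 0.266), and it rests on the library with 18.5 CPM and on another with 4.13 CPM. It was called with the factor as a covariate (4.08, adjusted P = 0.0426), and ABCG25 was called in della5x at 1 h without Ler mock 1 h replicate 1 (0.77, adjusted P = 0.0367).

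**Figure D4:**
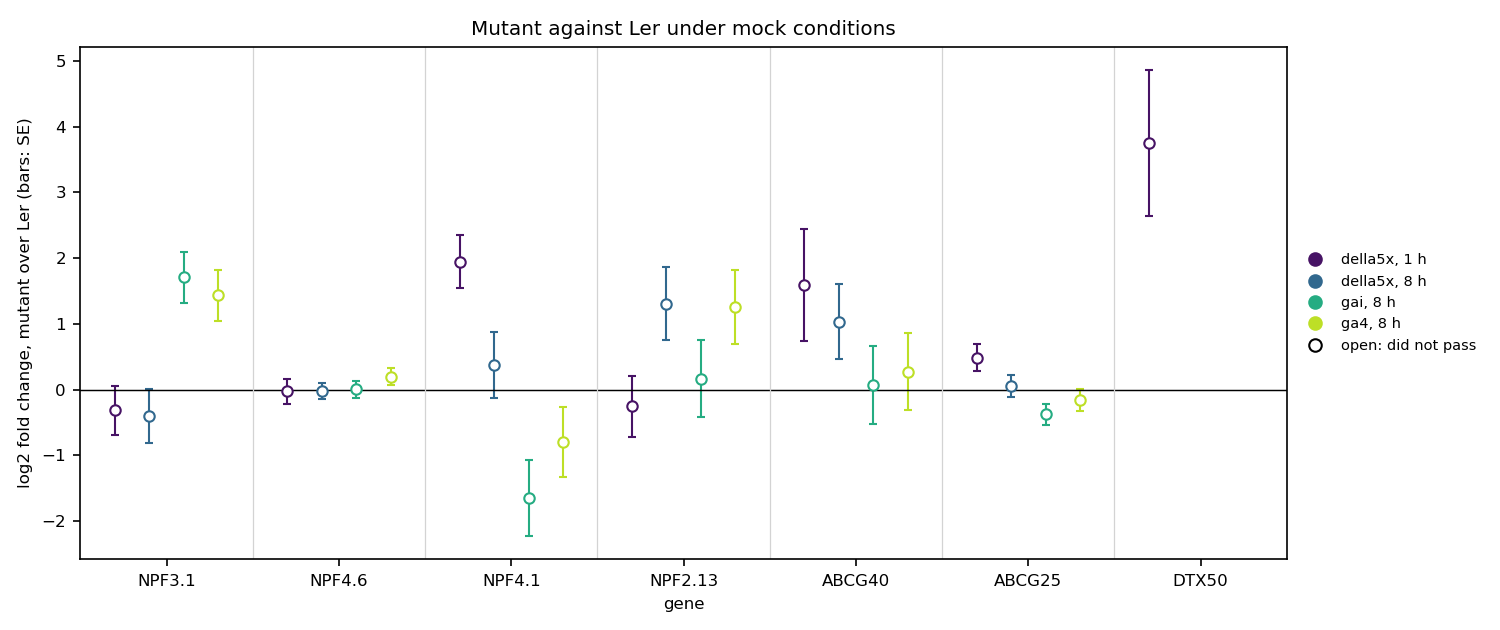
Mutants against Ler under mock conditions for the 7 genes (x axis), as log2 fold change of mutant over Ler (y axis) with bars for the SE. All points are open because none passed an adjusted P of 0.05, and DTX50 has no value at 8 h. Points away from 0 by more than their error include NPF3.1 in gai (1.71) and ga4 (1.43) and NPF4.1 in gai (-1.65). They also include NPF4.1 (1.95) and DTX50 (3.75) in della5x at 1 h, and NPF2.13 in della5x (1.31) and ga4 (1.26) at 8 h.

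Ordered by their mean level over the 12 groups, most neighbouring groups overlapped, in 10 of 11 neighbouring pairs for NPF3.1, NPF4.6, NPF4.1 and DTX50, in 9 for ABCG25 and in all 11 for NPF2.13 and ABCG40. Sorting by the mean places similar groups side by side, and the share over all genes was not counted, so these counts are no trait of these genes. The highest group was gai salt 8 h for NPF3.1, Ler salt 8 h for NPF4.6 and NPF2.13, della5x salt 8 h for NPF4.1, della5x salt 1 h for ABCG25 and DTX50, and della5x mock 1 h for ABCG40. The lowest was gai mock 8 h for NPF4.1, ABCG25 and DTX50, Ler mock 8 h for NPF2.13 and ABCG40, della5x mock 8 h for NPF3.1 and della5x mock 1 h for NPF4.6. The correlation of the group means of log2 CPM, a description over 12 groups that share the same treatments, was highest between ABCG40 and DTX50 (r = 0.87) and between NPF4.1 and DTX50 (r = 0.86), and lowest between NPF3.1 and ABCG25 (r = 0.12).

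Over all genes tested, those whose group means followed each member most closely were named by the same measure over the 12 groups. For ABCG25 they were SYP122, a syntaxin of the plasma membrane (r = 0.99), AT3G49220 (r = 0.98) and AT4G23050 (r = 0.97). For DTX50 they were AT4G29930 (r = 0.99), AT5G67340 (r = 0.98) and COBL8 (r = 0.98). NPF4.6 was followed by FH8, a formin (r = 0.97), CRK3 (r = 0.97) and NUDX15 (r = 0.96), and NPF4.1 by FMO GS-OX3 (r = 0.97), AT4G31000 (r = 0.97) and the metal transporter gene YSL2 (r = 0.96). The nearest genes to NPF2.13 were AT1G63140 (r = 0.96), AT1G19230 (r = 0.96) and FAR5, a fatty acyl reductase of suberin synthesis (r = 0.96). Those to NPF3.1 were the protease inhibitor gene KTI1 (r = 0.95), AT1G71140 (r = 0.95) and AT4G22240 (r = 0.95), and those to ABCG40 were AT5G22540 (r = 0.96), AT1G51350 (r = 0.96) and CRLK2 (r = 0.94). Each was picked as the highest of all genes tested.

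Among 13 other genes reported as ABA or GA carriers, a list also chosen with earlier results of these data known, 9 were tested. In Ler 1 of them rose and 0 fell at 1 h, where 8.54% of all genes rose and 5.37% fell, and 5 rose and 3 fell at 8 h, where 12.9% and 10.4% of all genes did. Their median log2 fold change was -0.02 at 1 h and 0.70 at 8 h, against -0.01 over all genes at both times. At 1 h the riser was NPF5.1, which imports ABA (0.79, adjusted P = 0.0483). At 8 h SWEET14, a sugar transporter that also moves GA, rose by 4.64 (adjusted P = 5.72e-08) and NPF5.1 by 1.85 (adjusted P = 1.19e-05), whereas NPF5.3 fell by 1.64 (adjusted P = 0.000400) and the ABC importer gene ABCG30 fell by 1.18 (adjusted P = 0.000102), on the log2 scale. At 8 h the counts of these 9 were 5 and 3 in della5x, 5 and 3 in gai, and 4 and 2 in ga4, for genes that rose and fell. Of all genes, 13.7% rose and 9.03% fell in della5x, 10.6% and 8.35% in gai, and 10.7% and 9.01% in ga4.

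Some of the genes that make and break down the hormones were called in the same libraries. Of 12 genes of ABA synthesis and breakdown, 8 were tested at 1 h, and in Ler 3 rose and 1 fell (median 0.40). These counts are to be read against the shares of all genes given above for Ler. The lists of this paragraph were also chosen with earlier results of these data known. NCED3 and NCED9, which cleave the carotenoid precursor of ABA, rose by 5.78 (adjusted P = 1.20e-06) and 4.90 (adjusted P = 1.78e-05), and CYP707A3, which breaks ABA down, fell by 3.05 (adjusted P = 0.00401). At 8 h 6 of 9 rose and 0 fell (median 0.71), among them NCED3 (4.14, adjusted P = 6.67e-11) and the ABA hydroxylase gene CYP707A1 (3.70, adjusted P = 4.32e-12). Of 14 tested genes of GA synthesis and inactivation, 4 rose and 0 fell at 1 h (median 0.50), including the GA-inactivating GA2OX6 (1.26, adjusted P = 0.000661) and GA2OX8 (1.96, adjusted P = 0.00552). At 8 h 3 of 14 rose and 1 fell (median 0.34), with GA2OX6 at 1.41 (adjusted P = 0.000483), GA2 at 0.68 (adjusted P = 0.00134) and KAO1, an enzyme of GA synthesis, at -0.59 (adjusted P = 0.0216). All 7 genes of a list of ABA response genes rose in each of the 6 comparisons. Of all genes, 8.54% rose in Ler and 6.62% in della5x at 1 h. At 8 h 12.9% rose in Ler, 13.7% in della5x, 10.6% in gai and 10.7% in ga4. At an unadjusted P under 0.05, 2 of these 7 responded less than Ler in della5x at 1 h and 0 at 8 h. In gai and in ga4 at 8 h 4 of 7 did. Of all genes, 4.11%, 4.72%, 5.27% and 5.04% differed in either direction, in this order. After adjustment 0 of the 7 differed. The phosphatase gene ABI1 rose by 2.42 at 1 h (adjusted P = 8.12e-06) and 2.41 at 8 h (adjusted P = 2.22e-12) in Ler, HAB1 by 2.38 at 1 h (adjusted P = 1.12e-05) and ABI2 by 3.32 at 8 h (adjusted P = 3.06e-13).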

How the data were processed

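The authors trimmed paired-end reads with fastp, aligned them to TAIR10 using HISAT2 and deposited the raw gene counts that HTSeq gave for 36 root libraries. Versions, the counting mode and strandedness were not given in the sources used here. Counts were analysed with edgeR 4.0.16 in R 4.3.3, using TMM scaling, filterByExpr (minimum count 10, minimum total count 15), the quasi-likelihood test and Benjamini-Hochberg adjustment over all genes tested. The libraries of 1 time point shared a fit, and mock libraries were also fitted alone, with edgeR in place of the study's DESeq2 and with its design. A response or a mock difference was called where the adjusted P was below 0.05 and the log2 change passed 0.5 in size, and differences of responses at an unadjusted P under 0.05. The SE is the log2 fold change over the root of the F statistic. Replicate numbers follow deposition order and were not used to pair samples.

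All 9 members were named, as were the 2 genes of smallest P in each direction of each other list in Ler and the 3 genes most correlated with each tested member. The members and lists were chosen with earlier results of these data known. DESeq2 1.42.0, other filters and normalisations, other sets of libraries, a residual factor as covariate and leaving out each library were tried as alternatives. The scripts were tested on simulated data. Windows, gene models and coding identity were read from the RefSeq TAIR10.1 genome by locus identifier with Python 3 and Biopython, since no promoter or protein table was used here.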

Additional observations from a re-analysis of the deposited data

Results flagged for a closer look

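The salt response of NPF2.13 in Ler was larger at 8 h than at 1 h by 2.80 on the log2 scale in a test of the difference itself (SE 0.89, adjusted P = 0.0414). All 3 salt libraries lay above all 3 mock libraries at 8 h and not at 1 h. The 1 h response itself (0.57) depended on 1 library and was -0.55 without Ler salt 1 h replicate 2. Of all genes tested, 20.5% also differed between the times after adjustment.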

How the results depend on the processing

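No paired analysis was run because the labels give no replicate numbers that groups share. No block was fitted for the third libraries of 8 h, which shared a sign on the first factor. Over 1480 values of 102 tested member results, 43 lost and 43 gained their call, and 78, from 25 results that were not called, changed sign. The largest of these results, NPF3.1 in della5x at 1 h (1.06), ranged from -0.00203, without della5x salt 1 h replicate 2, to 1.43 when 1 library was left out. Genes that rose in Ler at 1 h numbered 5 in place of 3 with the residual factor or the compared groups alone, and 1 whichever 1 of the 6 libraries was left out. Genes with a smaller response than Ler numbered, for della5x at 1 h, 1 with the factor in place of 0 (0 to 3 without 1 library). For della5x at 8 h they numbered 2 with the factor, 3 without the third libraries (an alternative chosen after seeing the data) and 0 with all 36 libraries, in place of 1 (0 to 2 without 1 library). For gai they numbered 1 in place of 0 with the factor, the compared groups alone or the third libraries left out (0 to 1 without 1 library), and for ga4 1 in place of 2 with all 36 libraries (1 to 3 without 1 library). Under mock conditions 1 gene was higher in place of 0 in della5x at 1 h with DESeq2 or the factor (0 to 1 without 1 library), in gai with no filter, DESeq2, the factor, the compared groups alone or the third libraries left out, and in ga4 with the same settings except the filter. Ler at 8 h against 1 h had 1 to 3 genes with a larger response without 1 library, and 1 in place of 0 with a smaller one under the factor (0 to 1 without 1 library). The causes were not tested.

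Over all genes, calls for della5x at 1 h fell from 2035 to 1056 with the compared groups alone. Differences from Ler went from 826 to 1416 with the factor (della5x, 1 h) and from 1073 to 1749 without the third libraries (gai). Mock differences went from 32 to 521 (della5x, 1 h), 95 to 235 (della5x, 8 h), 155 to 406 (gai) and 258 to 473 (ga4) with DESeq2, to 514, 375, 600 and 619 with the factor, to 248, 60, 61 and 83 with all 36 libraries, and to 252 in gai with the compared groups alone. Low counts limit NPF2.12, NPF2.14, ABCG40 and the mock values of DTX50 and NPF4.1.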
